A study of Homo sapiens with 38 samples.

Results

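The genes described here encode the subunits of the proteasome, its activators and its assembly factors. They were taken by symbol from the platform annotation: names beginning with PSM, then A, B, C, D, E, F or G, then a number. Of 50 symbols of this form, 42 name a proteasome protein and 41 of these passed the low-signal filter, out of 11456 genes measured in all. Each gene is given by its probe set with the highest mean signal. By position in the particle, the 41 are 6 alpha-ring subunits, 7 constitutive beta-ring subunits, 3 immunoproteasome subunits, 5 ATPases of the regulatory base, 9 non-ATPase subunits of the regulatory particle, 7 assembly chaperones, and 4 activators or inhibitors. These classes are not complete, since not every known subunit was analysed here. The gene left out by the filter was PSMA8, a testis form of an alpha subunit, whose highest scaled signal on any array was 18.4. PSMA6 and PSME2 lie on probe sets that the annotation also gives to another gene, and were not used here. The other 8 symbols name antisense or divergent RNAs and interacting proteins and are given apart.

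The proteasome is the main protease of the cytosol and nucleus and degrades proteins tagged with ubiquitin. Its core is a barrel of stacked rings, with gated outer alpha rings and inner beta rings in which PSMB5, PSMB6 and PSMB7 carry the proteolytic sites. A regulatory particle binds the barrel's end: ATPases (PSMC genes) unfold the substrate, and non-ATPase subunits (PSMD genes) bind and remove the ubiquitin chain. Interferon induces PSMB8, PSMB9 and PSMB10, which replace PSMB5, PSMB6 and PSMB7 in the immunoproteasome, and PSME1, part of an alternative cap. When proteolysis falls short, the transcription factor NFE2L1 is known to raise subunit genes together through antioxidant response elements in their promoters.

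RNA was measured on 38 Affymetrix U133 Plus 2.0 arrays of HT-1080, a fibrosarcoma line, and HT-29, a colorectal adenocarcinoma line, each also as a rho0 derivative deficient in mitochondrial DNA. The stresses were 2-deoxyglucose (2DG), a glucose analogue that blocks glycolysis; glucose starvation (GS); and tunicamycin (TM), which blocks N-glycosylation in the endoplasmic reticulum. Compounds added to a stress were 3 biguanides, phenformin (Phen) at 100 µM, metformin (Met) at 10 mM and buformin (Bu) at 300 µM, the respiratory chain blockers rotenone (Rot) at 100 nM and antimycin A (AA) at 10 ng/ml, and versipelostatin (VST, 3 µM), which blocks the chaperone response of glucose-starved cells. The design asks how each stress changes expression and how the compounds and the loss of mitochondrial DNA change that response.

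Exposure lasted 18 h, except 14 h for GS replicate 3 of HT-29 and for GS in HT-29 rho0. There were 12 control arrays (6 HT-1080, 2 HT-1080 rho0, 3 HT-29 and 1 HT-29 rho0) and 26 treated arrays, and the description of each treated array names 1 control. Of stress alone, the parental lines had 3 arrays of 2DG (HT-1080), 5 of GS (2 from HT-1080, 3 from HT-29) and 1 of TM (HT-1080). HT-1080 had 1 array each of 2DG with Met, Bu, Phen, VST, Rot and AA, of GS with VST and Rot, and of TM with Rot and AA. Another array held the supernatant with floating cells of GS with Rot, and GS with AA was measured only in such floating cells. HT-29 had 1 array of GS with VST. The rho0 lines had 1 array each of 2DG, GS (floating cells) and TM in HT-1080 and of GS in HT-29. The labels do not say whether arrays of a group came from separate cultures, so p-values reflect the array-to-array spread alone, which may be technical. The labels do not give the doses of 2DG and TM. Mitochondrially encoded transcripts were near background in the rho0 lines: COX1 had a mean scaled signal of 9918 in the parental arrays and 0.623 in the rho0 arrays.

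Promoters of 4 members are shown because these genes carry the contrasts described below: PSMD1 and PSMC2 fell with every tested glucose stress (PSMC2 not in HT-29 once a pair of arrays described below is left out), PSMB3 rose on the common scale with compounds added to 2DG or GS, and PSME1 stood above the controls on most stressed HT-1080 arrays. Each is the 250 bases before the first listed start, plus strand, 5′ to 3′, from RefSeq (GRCh38.p14): PSMD1 chr2:231056617-231056866, PSMC2 chr7:103347393-103347642, PSMB3 chr17:38752491-38752740 and PSME1 chr14:24135944-24136193. Capitals mark the core of an antioxidant response element (TGACNNNGC, searched on both strands).
PSMD1: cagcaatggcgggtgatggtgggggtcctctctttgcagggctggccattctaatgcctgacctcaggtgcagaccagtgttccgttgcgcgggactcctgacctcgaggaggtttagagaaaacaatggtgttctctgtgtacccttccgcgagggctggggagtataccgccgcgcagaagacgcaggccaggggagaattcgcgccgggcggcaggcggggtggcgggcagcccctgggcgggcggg
PSMC2: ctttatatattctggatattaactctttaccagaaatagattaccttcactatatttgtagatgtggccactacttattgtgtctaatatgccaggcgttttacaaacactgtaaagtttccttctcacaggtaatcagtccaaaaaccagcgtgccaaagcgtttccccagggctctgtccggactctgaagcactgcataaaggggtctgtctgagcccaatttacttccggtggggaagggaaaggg
PSMB3: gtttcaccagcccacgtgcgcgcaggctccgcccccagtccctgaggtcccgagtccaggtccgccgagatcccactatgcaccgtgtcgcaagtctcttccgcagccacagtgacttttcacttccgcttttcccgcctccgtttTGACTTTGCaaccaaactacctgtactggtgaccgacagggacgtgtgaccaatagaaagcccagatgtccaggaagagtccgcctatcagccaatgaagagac
PSME1: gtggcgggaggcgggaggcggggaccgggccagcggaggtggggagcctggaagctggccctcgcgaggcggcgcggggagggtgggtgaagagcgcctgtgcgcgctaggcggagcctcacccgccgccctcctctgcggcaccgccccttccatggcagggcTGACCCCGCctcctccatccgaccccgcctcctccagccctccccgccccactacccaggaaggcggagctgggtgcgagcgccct

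Of the 41 members, 35 had a promoter of this kind. The antioxidant core occurred in 10 of them (28.6%; 11% of 27305 RefSeq promoters of the same length), namely PSMB3, PSMB9, PSMD3, PSMD5, PSMD9, PSMD12, PSME1, PSME4, PSMG1 and PSMG2. In PSMB3 it ends 96 bases and in PSME1 78 bases before the start, and neither PSMD1 nor PSMC2 holds it in this window. A CCAAT box (CCAAT, both strands) occurred in 15 (42.9%; 33% of all), including PSMB3 and PSMC2. A GC box (GGGCGG, both strands) occurred in 21 (60%; 42.3% of all), including PSMD1, PSMB3 and PSME1, and an interferon response core (GAAANNGAA, both strands) in 4 (11.4%; 7.06% of all): PSMA4, PSMB4, PSMB10 and PSMG4. These are matches of letters, and binding was not measured.

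Signals are on a common scale, in which each array was brought to the same trimmed mean over all probe sets. In the authors' deposited values the trimmed mean of 100 normalization probe sets, 1 of them that of PSMB2, is instead constant within each line and mitochondrial DNA status. On the deposited scale the array-wide trimmed mean was 124 to 136 on the 9 parental controls, 122 to 131 on the 9 parental arrays with a stress alone and 118 to 119 with TM and a compound. It was 89.5 to 102 on the 11 parental arrays with 2DG or GS and a compound. The direction of a change with a compound therefore depends on the scale, and the main counts and medians are given on both. The ratio of the 3′ to the 5′ probe set of ACTB, a sign of RNA quality, was 1.06 to 1.3 on the parental controls, 1.04 to 1.42 with a stress alone and 1.21 to 1.76 with 2DG or GS and a compound, and its part in the results was not tested. Of 8 colon epithelial markers 6 had a higher mean in HT-29 and 2 in HT-1080, and 3 of the 8 stayed under the filter level on every array. Among 8 mesenchymal markers 6 were higher in HT-1080 and 2 in HT-29, with 1 under that level on every array. Of 3 immune markers 2 stayed under that level on every array.

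The replicate 2 pair of HT-29, 1 control and 1 GS array, stood apart from the other HT-29 arrays. That control correlated with the other HT-29 controls at r = 0.941 to 0.948 across genes, while those correlated at 0.979 with each other, and 1185 of its genes lay over 2-fold from the others' mean (569 and 698 for the others). Both arrays of the pair exceeded every other HT-29 array for 5 of 6 interferon-induced genes, which were chosen after their values were seen; IFIT1 was at 616 and 400.2 on the pair and at 11.6 to 54.1 elsewhere. The same held for KRT20, a colon epithelial marker, at 2866 and 3868 against 12.5 to 194. It did not hold for EPCAM, the other colon epithelial marker examined here, at 5174 and 5714 against 4609 to 7554. Counts and named calls that change when this pair is left out are given with and without it.

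Under a stress alone most members were lower than in their own controls, by small amounts. Changes are log2 differences, called at a Benjamini-Hochberg adjusted p under 0.05 over all genes in limma. With 2DG in HT-1080 the members' median was -0.14, against -0.04 for 2442 genes of similar signal, those between the 10th and 90th percentile of the members. Of the 41 members, 2 fell and 0 rose (3.37% of all genes fell and 4.9% rose), and 12 had an unadjusted p under 0.05. After quantile normalization 2 fell and 1 rose. With GS in HT-1080 the median was -0.14 against -0.03, and 5 members fell and 0 rose (5.1% and 4.36% of all genes), with 13 at an unadjusted p under 0.05. These arrays measure whole cultures, so fewer cells of a kind and less RNA per cell cannot be told apart.

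With GS in HT-29 16 members fell and 1 rose, with a median of -0.22 against -0.07 for genes of similar signal. Of all genes 15.5% fell and 11.6% rose, and of genes of similar signal 22.1% fell. Without the replicate 2 pair the median was -0.20, and 6 members fell (6.76% of all genes and 10.7% of those of similar signal): PSMB5, PSMC1, PSMD1, PSMD3, PSMG3 and PSME3. The other 10 then had changes from -0.61 to -0.18 with adjusted p from 0.096 to 0.26. The member that rose was PSME4 with the pair and PSMB9 without it (6.51% of all genes rose). Fitted on arrays of the same line alone, 9 members fell with 2DG, 10 with GS in HT-1080 and 4 with GS in HT-29, so the counts do not rank the stresses. Leaving out any 1 array of replicates 1 and 2 of HT-29 also left 6 that fell. In the smaller HT-1080 comparisons, leaving out any 1 of the 6 arrays with 2DG or of the 4 with GS, controls counted, left 0 members that fell. TM, with 1 array, gave no call among the members (0% of all genes rose and 0% fell), with 3 members at an unadjusted p under 0.05 and a median of -0.10 against -0.03.

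The 3 comparisons with glucose stress share no treated arrays and no own controls. Each gene's spread was still estimated once, from the arrays and controls of these 3 together. They are therefore not independent tests. PSMC2 and PSMD1 fell in all 3 (4.88% of the members, 1.13% of all genes and 3.28% of genes of similar signal). Of them PSMD1 alone was still called with GS in HT-29 when the pair was left out of that test. The calls in HT-1080 come from fits that hold the pair. With PSMD3 and PSME3, 4 fell in both with GS (9.76%, 3.11% and 6.1% in the same order). In at least 1 fell 17 members (41.5%, 18.7% and 26.4%). Over all 9 parental arrays with a stress alone, TM included, 14 members (34.1%) lay below their own control on every array, as did 9.99% of all genes and 18.0% of genes of similar signal. They were PSMA2, PSMA7, PSMB2, PSMB5, PSMB6, PSMC1, PSMC2, PSMC6, PSMD1, PSMD3, PSMD6, PSMD11, PSMG3 and PSME3. No test of the GS response between HT-29 and HT-1080 called a member (0.402% of all genes were called higher and 0.166% lower; 4 members at an unadjusted p under 0.05). In that test 2 members were called lower without GS replicate 3 of HT-29, or without the control of that array. The difference between GS and 2DG in HT-1080 called 0 members in limma (0.00873% of all genes each way), with 1 at an unadjusted p under 0.05.

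**Figure D1:**
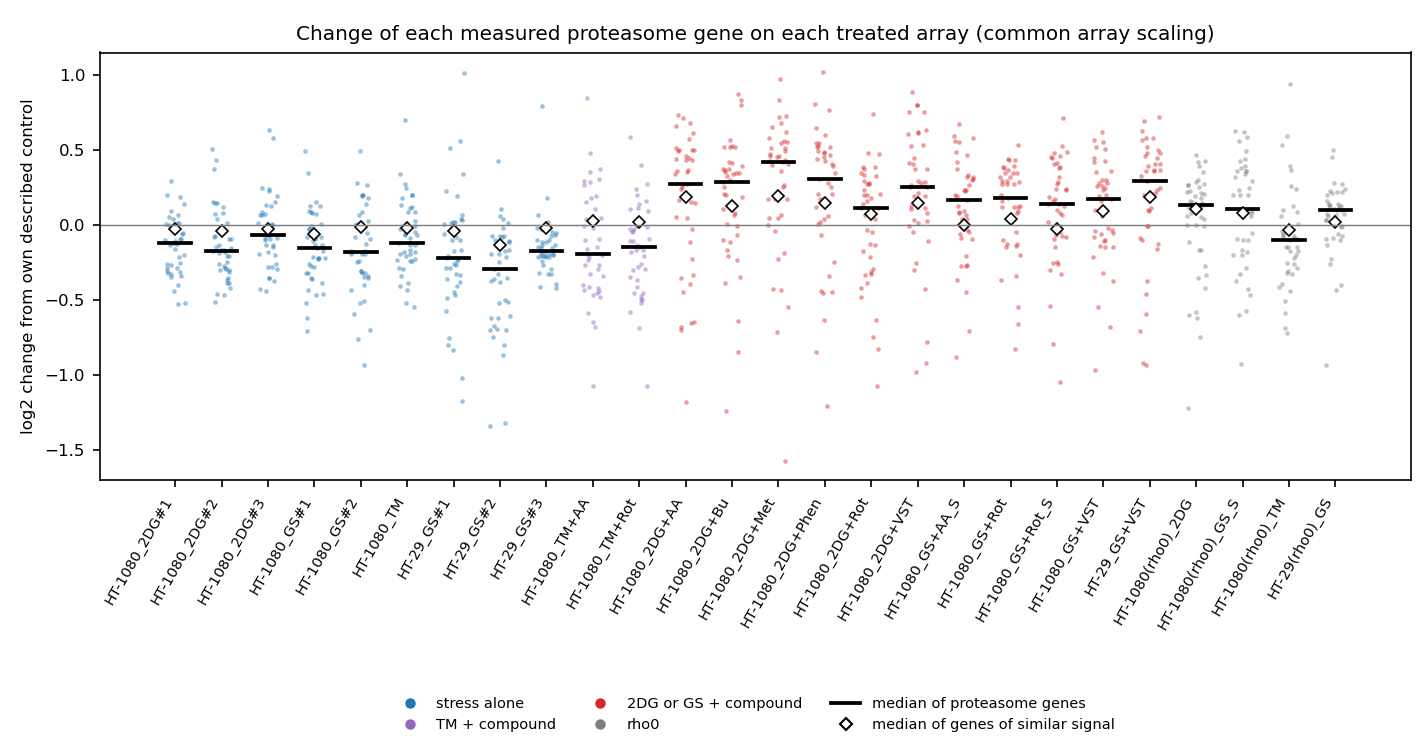
Log2 change of each of the 41 members (dots) from the own control on each of 26 treated arrays, on the common scale, with the members' median (black bar) and the median of 2442 genes of similar signal (hollow diamond). The members' median lay between -0.29 and -0.06 on the 9 parental arrays with a stress alone and between 0.12 and 0.42 on the 11 with 2DG or GS and a compound; on the deposited scale the latter lay between -0.29 and -0.05.

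In the regulatory particle the falls included a scaffold subunit and single ATPases. PSMD1, the scaffold to which ubiquitin receptors bind, had a scaled signal in the 6 HT-1080 controls from 1237 to 1629.8 (median 1443), of 980.1, 1048 and 1085 with 2DG, 897 and 917 with GS and 1017 with TM. All 6 stressed arrays lay below all controls. In HT-29 it was 1541, 1355 and 1454 in the controls and 884, 878 and 1209 with GS, again without overlap. Its log2 change was -0.44 ± 0.12 (SE, adjusted p = 0.044) with 2DG, -0.58 ± 0.15 (SE, adjusted p = 0.031) with GS in HT-1080 and -0.56 ± 0.12 (SE, adjusted p = 0.0066) with GS in HT-29. The last was -0.53 (adjusted p = 0.038) without the replicate 2 pair and -0.44 without GS replicate 1 of HT-29 (adjusted p = 0.059) or its control (adjusted p = 0.06).

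PSMC2, an ATPase of the base, was measured in the HT-1080 controls from 3022 to 3822 (median 3253), with 2DG at 2650.4, 2435 and 2309, with GS at 2439.6 and 2328 and with TM at 2604. The stressed arrays again all lay below the controls. It fell by 0.47 with 2DG (SE 0.11, adjusted p = 0.023), by 0.48 with GS in HT-1080 (adjusted p = 0.046) and by 0.36 with GS in HT-29 (adjusted p = 0.03), the last being -0.20 (adjusted p = 0.22) without the replicate 2 pair. In HT-29 the ATPases PSMC1 (-0.56, adjusted p = 0.0044) and PSMC3 (-0.41, adjusted p = 0.037) fell as well, so 3 of 5 ATPases fell there and 0 rose. Of all genes 15.5% fell and 11.6% rose. Without the pair 1 of the 5 ATPases fell, PSMC1 (-0.54, adjusted p = 0.029), beside 6.76% of all genes. PSMC3 then stood at -0.21 (adjusted p = 0.26). PSMC4 did not pass in any stress, with changes of 0.22, 0.06 and -0.08 in the order 2DG, GS and GS in HT-29.

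PSMD3, a subunit of the lid, was at 594 to 855 (median 722) in the HT-1080 controls, at 548, 637 and 551 with 2DG, at 450.0 and 349 with GS and at 412 with TM. In HT-29 it was at 989, 988 and 1119 in the controls and at 554, 610.2 and 836 with GS, where the 14 h array was the highest of the 3. GS changed it by -0.73 ± 0.15 (SE, adjusted p = 0.014) in HT-1080 and by -0.65 ± 0.12 (SE, adjusted p = 0.0039) in HT-29, where it was -0.62 (adjusted p = 0.023) without the replicate 2 pair. Of 9 non-ATPase subunits 4 fell with GS in HT-29 (15.5% of all genes), the others being PSMD2 (-0.33) and PSMD6 (-0.37). Without the pair PSMD1 and PSMD3 fell (6.76% of all genes), and PSMD2 stood at -0.18 (adjusted p = 0.26) and PSMD6 at -0.30 (adjusted p = 0.1). PSMD4, which binds ubiquitin, and PSMD14, which removes it, did not pass in any stress, with changes between -0.17 and 0.13.

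Of the core in HT-1080, 0 of 13 constitutive alpha and beta subunits passed with 2DG or GS (3 at an unadjusted p under 0.05 in each). Of all genes 3.37% fell and 4.9% rose with 2DG, and 5.1% fell and 4.36% rose with GS. With GS in HT-29 6 of the 13 fell (15.5% of all genes): PSMA2, PSMA4, PSMA5, PSMB2, PSMB5 and PSMB6. Without the replicate 2 pair 1 of the 13 fell, PSMB5 (-0.41, adjusted p = 0.028). Of all genes 6.76% then fell, and of those of similar signal 10.7%. PSMB5, the chymotrypsin-like site, was at 2234, 1809 and 2192 in the HT-29 controls and at 1590.1, 1114 and 1749 with GS, each GS array below all controls. Its change was -0.50 ± 0.09 (SE, adjusted p = 0.0036). PSMB6, the caspase-like site, went from 1889, 1959.7 and 1911 to 1550.1, 1074 and 1522, also without overlap, and fell by 0.49 (adjusted p = 0.013), or by 0.31 (adjusted p = 0.096) without the replicate 2 pair. PSMB7, the trypsin-like site, had a change of -0.12 (adjusted p = 0.26).

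Among the assembly chaperones, PSMG3 and PSMG4, which together help to build the alpha ring, both fell with GS in HT-29. PSMG3 was at 491, 552 and 605 in the controls and at 239, 218 and 460.1 with GS, a change of -0.91 ± 0.16 (SE, adjusted p = 0.0033), with the 14 h array closest to the controls; it was -0.71 (adjusted p = 0.026) without the replicate 2 pair. PSMG4 was at 728, 1216 and 602 and at 320.4, 477 and 580.5, a change of -0.85 ± 0.22 (SE, adjusted p = 0.014) that was -0.61 (adjusted p = 0.11) without the replicate 2 pair. PSMD5, a chaperone of the ATPase base, was at 226 to 282 (median 246) in the HT-1080 controls and fell to 156 and 133 with GS (-0.78 ± 0.18 SE, adjusted p = 0.023), both below all 6 controls. In HT-29 PSMD5 changed by -0.14 (adjusted p = 0.52), and the difference between the lines, 0.64 (adjusted p = 0.26), did not pass.

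The activators differed among themselves in their values. PSME1, part of the interferon-inducible cap, lay from 596 to 924 (median 749) in the HT-1080 controls and at 680.4, 1250.1 and 1231 with 2DG, 955 and 1231 with GS and 1418 with TM. All but the first 2DG array exceeded every control. Its changes were 0.40 (adjusted p = 0.062), 0.49 (adjusted p = 0.058) and 0.70 (adjusted p = 0.42), none past the threshold. PSME3, a nuclear activator, fell with GS in HT-1080 (-0.45, adjusted p = 0.04) and in HT-29 (-0.58, adjusted p = 0.0028), where it was -0.49 (adjusted p = 0.02) without the pair. PSME4, a large nuclear activator, was the member that rose in HT-29 (0.39 ± 0.13 SE, adjusted p = 0.039). It stood at 0.37 (adjusted p = 0.12) without the replicate 2 pair and at 0.39 (adjusted p = 0.091) without the control block. In HT-1080 its values were 0.20 with 2DG and 0.27 with GS. Other probe sets of PSME4 past the filter had medians of 0.21 and -0.16 over the 9 parental arrays with a stress alone, against 0.20 for that used. PSMF1, an inhibitor in vitro, did not pass in any of these.

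**Figure D2:**
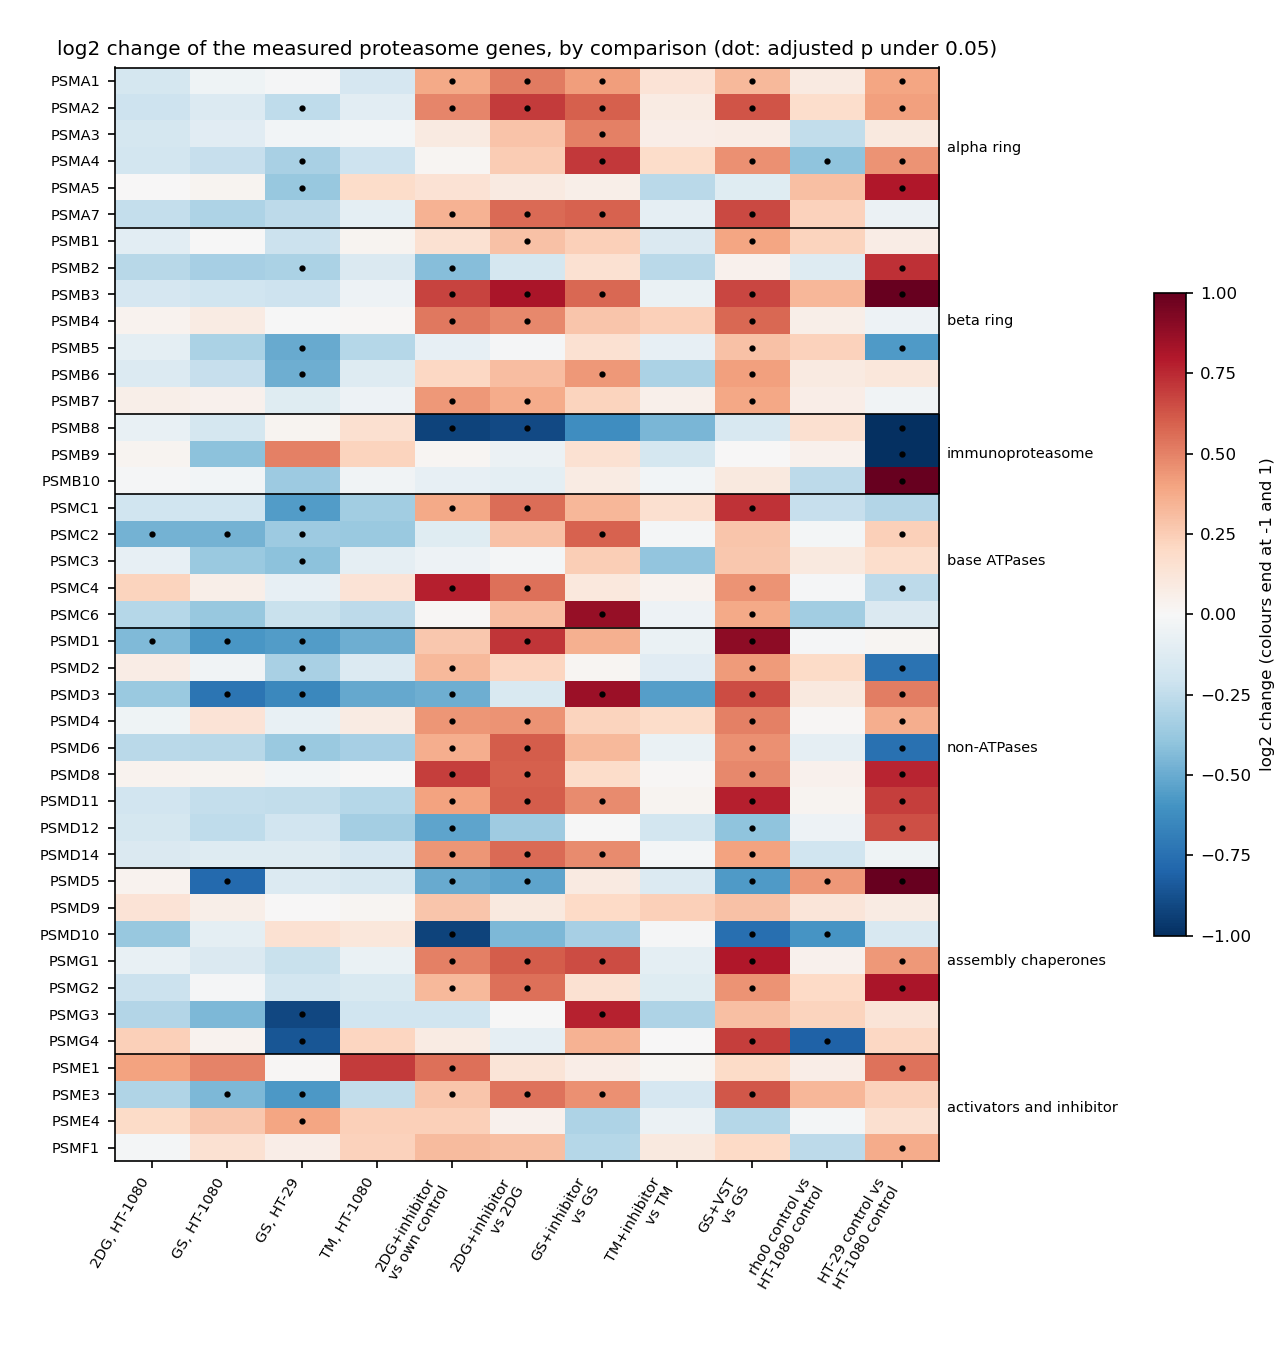
Log2 change of the 41 members (lines of the map, by class) in 11 comparisons on the common scale; dots mark an adjusted p under 0.05 in limma, and colours end at -1 and 1. Blue predominates under stress alone, where 2, 5 and 16 members fell with 2DG, GS and GS in HT-29 (6 there without the replicate 2 pair), and red in the comparisons with compounds under 2DG or GS, where 15 to 25 rose on this scale and 2 or 3 on the deposited scale.

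With a respiratory inhibitor added to 2DG, many members stood higher on the common scale. The 5 inhibitors (Met, Bu, Phen, Rot and AA) were tested as 1 class, so that the spread between compounds counts as error. Against the own controls 18 members rose and 6 fell, with a median of 0.27 (14.7% of all genes rose and 24.6% fell; 32.3% and 17.0% of genes of similar signal, whose median was 0.15). Against 2DG alone 18 rose and 2 fell, with a median of 0.30 (12.7% and 21.7% of all genes; median 0.16 for similar signal). On the deposited scale the same comparisons gave 3 that rose and 15 that fell (median -0.15) and 2 that rose and 8 that fell (median -0.09), and after quantile normalization 5 and 10 (median 0.01) and 9 and 5 (median 0.08). The deposited scale had a median over all genes of -0.53 to -0.37 against own control on these 5 arrays, so lower values there were not particular to the members. Higher values on the common scale were not particular to them either, given the medians of 0.15 and 0.16 for similar signal. Which scale is closer to the RNA of the cells was not tested. Both comparisons with 2DG share their treated arrays. Without control 3, the control named for Met, Bu and Phen, 9 members rose against own control on the common scale.

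Under GS members also stood higher on the common scale. Rot and AA (the latter in floating cells) against GS alone gave 15 members that rose and 0 that fell, median 0.25 (11.1% and 13.5% of all genes; similar-signal median 0.03), and 2 that rose and 4 that fell on the deposited scale (median -0.13); after quantile normalization 5 rose and 0 fell. In the deposited values the median over all genes was -0.45 with Rot and -0.50 with AA against own control. Without GS replicate 2 of HT-1080 0 members rose on the common scale. The floating-cell array with Rot stayed out of this test, since it may be the same culture as the attached cells. VST against GS alone, over both lines, gave 25 that rose and 3 that fell, median 0.40 (14.3% and 22.1% of all genes). Of the 2442 genes of similar signal 743 rose and 444 fell, with a median of 0.15. On the deposited scale 3 members rose and 7 fell (median -0.04), and after quantile normalization 8 rose and 2 fell. The deposited median over all genes with VST was -0.50 in HT-1080 and -0.52 in HT-29 against own control. On the common scale 15 members rose without GS replicate 1 of HT-1080, and 25 without the HT-29 replicate 2 pair. PSMA1, PSMA2, PSMA7, PSMB3, PSMD11, PSMD14, PSMG1 and PSME3 rose on the common scale in all 3 comparisons against a stress alone, of which those with GS share GS arrays (19.5% of the members, 4.49% of all genes and 10.9% of those of similar signal). With deposited values 0 did so (0.453% of all genes) and after quantile normalization 2, PSMG1 and PSME3 (2.98% of all genes).

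Set against genes of similar signal on the same array, the members' median was higher by 0.04 to 0.23 on each of the 11 arrays with 2DG or GS and a compound, on the common and on the deposited scale. Those scales differ only by a factor per array, so a near-equal margin on both was fixed in advance and is no second test. With quantile normalization that margin was -0.08 to 0.08. With a stress alone it was -0.18 to -0.04, -0.18 to -0.04 and -0.24 to -0.08 in the same order. On the common scale 17 members (41.5%) were above their own control on all 11 arrays, as were 10.1% of all genes and 21.3% of those of similar signal. With deposited values it was 0 members (1.34% of all genes) and after quantile normalization 4 (9.04%). For 13 members (31.7%) all 11 arrays lay above all 9 with a stress alone, against 3.61% of all genes and 8.11% of those of similar signal, and for 0 members all lay below. In the deposited values all lay above for 0 members (0.218% of all genes) and below for 2 (11.4%), and after quantile normalization above for 3 (1.86%) and below for 0.

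**Figure D3:**
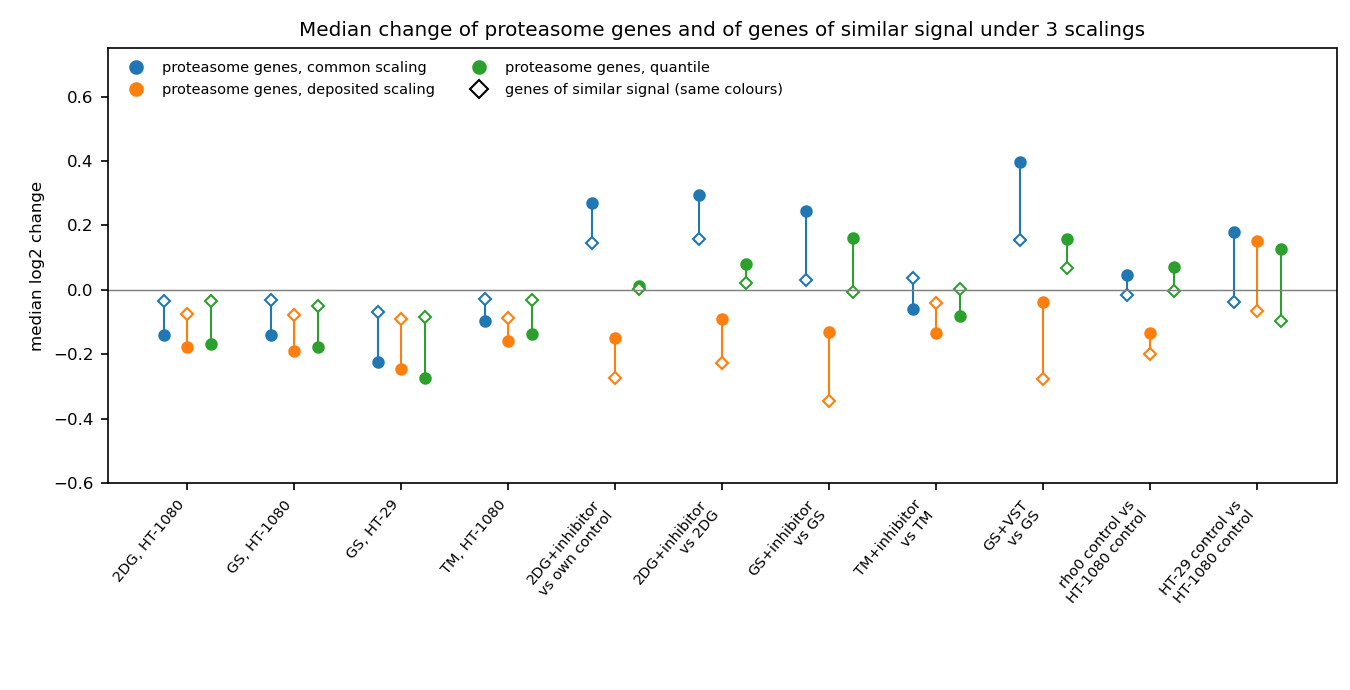
Median log2 change of the members and of the genes of similar signal in each comparison, under the common, the deposited and the quantile scale. The members' median stayed below 0 under each scale for the 3 glucose stresses, while for the 4 comparisons with compounds under 2DG or GS it was 0.25 to 0.40 on the common scale, -0.15 to -0.04 on the deposited scale and 0.01 to 0.16 after quantile normalization.

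With TM the inhibitors called 0 members against TM alone in limma (0.131% of all genes rose and 0.428% fell; 1 member at an unadjusted p under 0.05), with a median of -0.06. The effect of the inhibitors with 2DG was then tested against their effect with TM, which called 7 members higher and 0 lower (1.61% of all genes higher and 2.91% lower): PSMA2, PSMA7, PSMB3, PSMD1, PSMD6, PSMG1 and PSME3. On the deposited scale PSMB3 alone of the 7 was called (0.57, adjusted p = 0.022), and leaving out 1 array gave 0 to 9 calls. It was 0 without 2DG replicate 2 or TM with AA, and 1 without 2DG replicate 1, control 2 or control 3. It was 3 without Phen, 2DG replicate 3, control 5 or control 6, and 4 without TM with Rot or control 4.

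PSMB3, a structural beta subunit, kept its rise under 2DG on each scale. Its scaled signal was from 2604 to 3616 (median 3402) in the HT-1080 controls, 2967, 2852 and 2821 with 2DG and 4640.3, 4543, 4444, 4465 and 5389 with Met, Bu, Phen, Rot and AA in this order. Each of the 5 exceeded every control and every array with 2DG alone. The change against 2DG alone was 0.82 ± 0.10 (SE, adjusted p = 2.5e-05), 0.43 (adjusted p = 0.00078) on the deposited scale and 0.44 (adjusted p = 0.0015) after quantile normalization. With TM it was 3231 alone and 3022 and 3164 with Rot and AA, inside the control range. In HT-29 it was 7499, 7630.5 and 7385 in the controls, 6995, 5860.5 and 6726 with GS and 11219 with GS and VST.

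PSMC4, an ATPase, had the largest rise against own control, 0.77 ± 0.09 (SE, adjusted p = 3.4e-06), which was 0.35 (adjusted p = 0.0037) on the deposited scale. It lay from 1549 to 1742 (median 1621) in the controls and at 2742, 2957, 2905, 2822 and 2764 with Met, Bu, Phen, Rot and AA. Those 5 arrays lay above all controls and above 2DG alone (1907, 1865 and 2043). PSMD8, a lid subunit, was at 2908, 2717, 3008, 2386 and 2427 against 1480.2 to 1927 (median 1744) in the controls, with a change of 0.69 ± 0.10 (SE, adjusted p = 3.4e-05) (0.27 on the deposited scale). PSMD1, low under each stress alone, was at 2095, 1754, 2077, 1635 and 1711 with the inhibitors. It rose against 2DG alone by 0.71 (SE 0.13, adjusted p = 0.00046), and the deposited scale gave 0.33 (adjusted p = 0.061).

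A smaller group fell with 2DG and the inhibitors on every scale. PSMD10, an assembly chaperone also known as gankyrin, was at 1032 to 1174 (median 1104) in the controls, 857, 822 and 864 with 2DG and 382, 482, 492, 660.3 and 861 with Met, Bu, Phen, Rot and AA. All 5 lay below the controls, and the AA array overlapped those with 2DG alone. Its change against own control was -0.93 ± 0.16 (SE, adjusted p = 0.00016), -1.35 on the deposited scale and -0.99 after quantile normalization. PSMD12, a lid subunit, was at 1186, 1486, 1429, 1347 and 1154 against 1872 to 2150.1 (median 2001) in the controls (-0.53 ± 0.12 SE, adjusted p = 0.0018). PSMD3 (-0.48) and PSMB2 (-0.43) fell as well, and PSMD5 (-0.51) fell on the common and deposited scales but not after quantile normalization (-0.30, adjusted p = 0.13). PSMD10 (-0.75, adjusted p = 0.0025), PSMD5 (-0.57, adjusted p = 0.019) and PSMD12 (-0.40, adjusted p = 0.015) were also the members that fell with GS and VST.

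Under GS with Rot or AA, PSMC6 and PSMD3 rose most. PSMC6, an ATPase, was at 1713 and 1435 with GS alone, 2336 with Rot, 2508 in the floating cells of that treatment and 2862 with AA. All 3 lay above GS alone and above the control range of 1793 to 2314. Its change against GS alone was 0.87 ± 0.17 (SE, adjusted p = 0.0013) and 0.50 (adjusted p = 0.036) on the deposited scale. PSMD3 changed by 0.85 ± 0.17 (SE, adjusted p = 0.0013) and 0.48 (adjusted p = 0.048) in the same order. Of the alpha ring 5 of 6 rose on the common scale (11.1% of all genes), led by PSMA4 (0.71; deposited scale 0.33, adjusted p = 0.096), which was at 4318, 4147 and 4681 against 2573 and 2803 with GS alone.

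With GS and VST the rises on the common scale covered 4 of 6 alpha, 6 of 7 beta, 3 of 5 ATPase and 8 of 9 non-ATPase subunits. They also covered 3 of 7 chaperones and 1 of 4 activators or inhibitors, beside 14.3% of all genes. Of 3 immunoproteasome subunits 0 rose, but PSMB8 and PSMB9 were under the filter level with GS and VST in HT-29 (1.42 and 3.2). PSMD1 changed most, by 0.89 ± 0.13 (SE, adjusted p = 0.0005), from 897 and 917 to 1482 in HT-1080 and from 884, 878 and 1209 to 1938 in HT-29. It was 0.46 (adjusted p = 0.026) on the deposited scale. PSMG1, a chaperone of the alpha ring, followed with 0.80 ± 0.11 (SE, adjusted p = 0.00026) (deposited scale 0.37, adjusted p = 0.028). The 3 catalytic beta subunits PSMB5, PSMB6 and PSMB7 rose by 0.29, 0.41 and 0.39, but stood at -0.14, -0.02 and -0.05 on the deposited scale.

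By single compound, each with 1 array and so no test, the members' median change from own control under 2DG was 0.42 with Met, 0.28 with Bu, 0.31 with Phen, 0.12 with Rot, 0.28 with AA and 0.25 with VST on the common scale. The deposited scale gave -0.05, -0.07, -0.07, -0.21, -0.23 and -0.13 in the same order. The doses differ between the biguanides, so their values stand side by side without comparison. Under GS the common scale gave 0.18 with VST in HT-1080, 0.29 with VST in HT-29, 0.18 with Rot, 0.14 in floating cells with Rot and 0.16 in floating cells with AA, and the deposited scale gave -0.27, -0.17, -0.23, -0.29 and -0.28. The 2 arrays of TM with Rot and AA had -0.15 and -0.19 on the common scale and -0.27 and -0.34 on the deposited one.

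Of the members, PSMB8 and PSMB9 had the largest fitted differences between the lines. PSMB8 was at 269.7 to 416 (median 317) in the HT-1080 controls, but in HT-29 at 0.412 to 1.42 on 7 arrays and at 157 and 169.9 on the replicate 2 pair. PSMB9 lay from 104 to 212 (median 147) in the HT-1080 controls, and in HT-29 at 1.08 to 18.5 apart from that pair, which had 73.6 and 59.1. Apart from the pair, HT-29 thus stood under the filter level for both genes. The fitted difference of the HT-29 from the HT-1080 controls, -4.15 (adjusted p = 0.00022) for PSMB8 and -3.03 (adjusted p = 0.0002) for PSMB9, depends on the offset added before taking logs, and was -5.71 (adjusted p = 7e-12) and -4.04 (adjusted p = 3.5e-08) without the pair. PSMB10 ran the other way, at 495, 535 and 561 in HT-29 against 176 to 273 (median 244) in HT-1080, without overlap (1.16 ± 0.14 SE, adjusted p = 5.3e-06).

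In HT-1080 PSMB8 was the immunoproteasome gene that fell with the inhibitors. It was at 224, 167, 166, 167 and 155 with 2DG and Met, Bu, Phen, Rot and AA, all below the lowest control, and at 279.9, 335 and 327 with 2DG alone. The change against own control was -0.93 ± 0.16 (SE, adjusted p = 0.00018), -1.34 on the deposited scale and -0.74 after quantile normalization, and against 2DG alone -0.91 ± 0.19 (SE, adjusted p = 0.0014). Without the control block the 2 values were -0.89 (adjusted p = 0.3) and -0.82 (adjusted p = 0.45). With GS and Rot or AA it was -0.62 (adjusted p = 0.055) and with TM and the inhibitors -0.46 (adjusted p = 0.46). PSMB9 and PSMB10 passed in none of the 9 comparisons with stress, although PSMB9 passed for GS in HT-29 without the replicate 2 pair (0.90, adjusted p = 0.045), at signals under the filter level. Of 12 antigen presentation genes 4 fell and 1 rose against 2DG alone with the inhibitors on the common scale (12.7% of all genes rose and 21.7% fell), and on the deposited scale 9 fell and 0 rose.

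**Figure D4:**
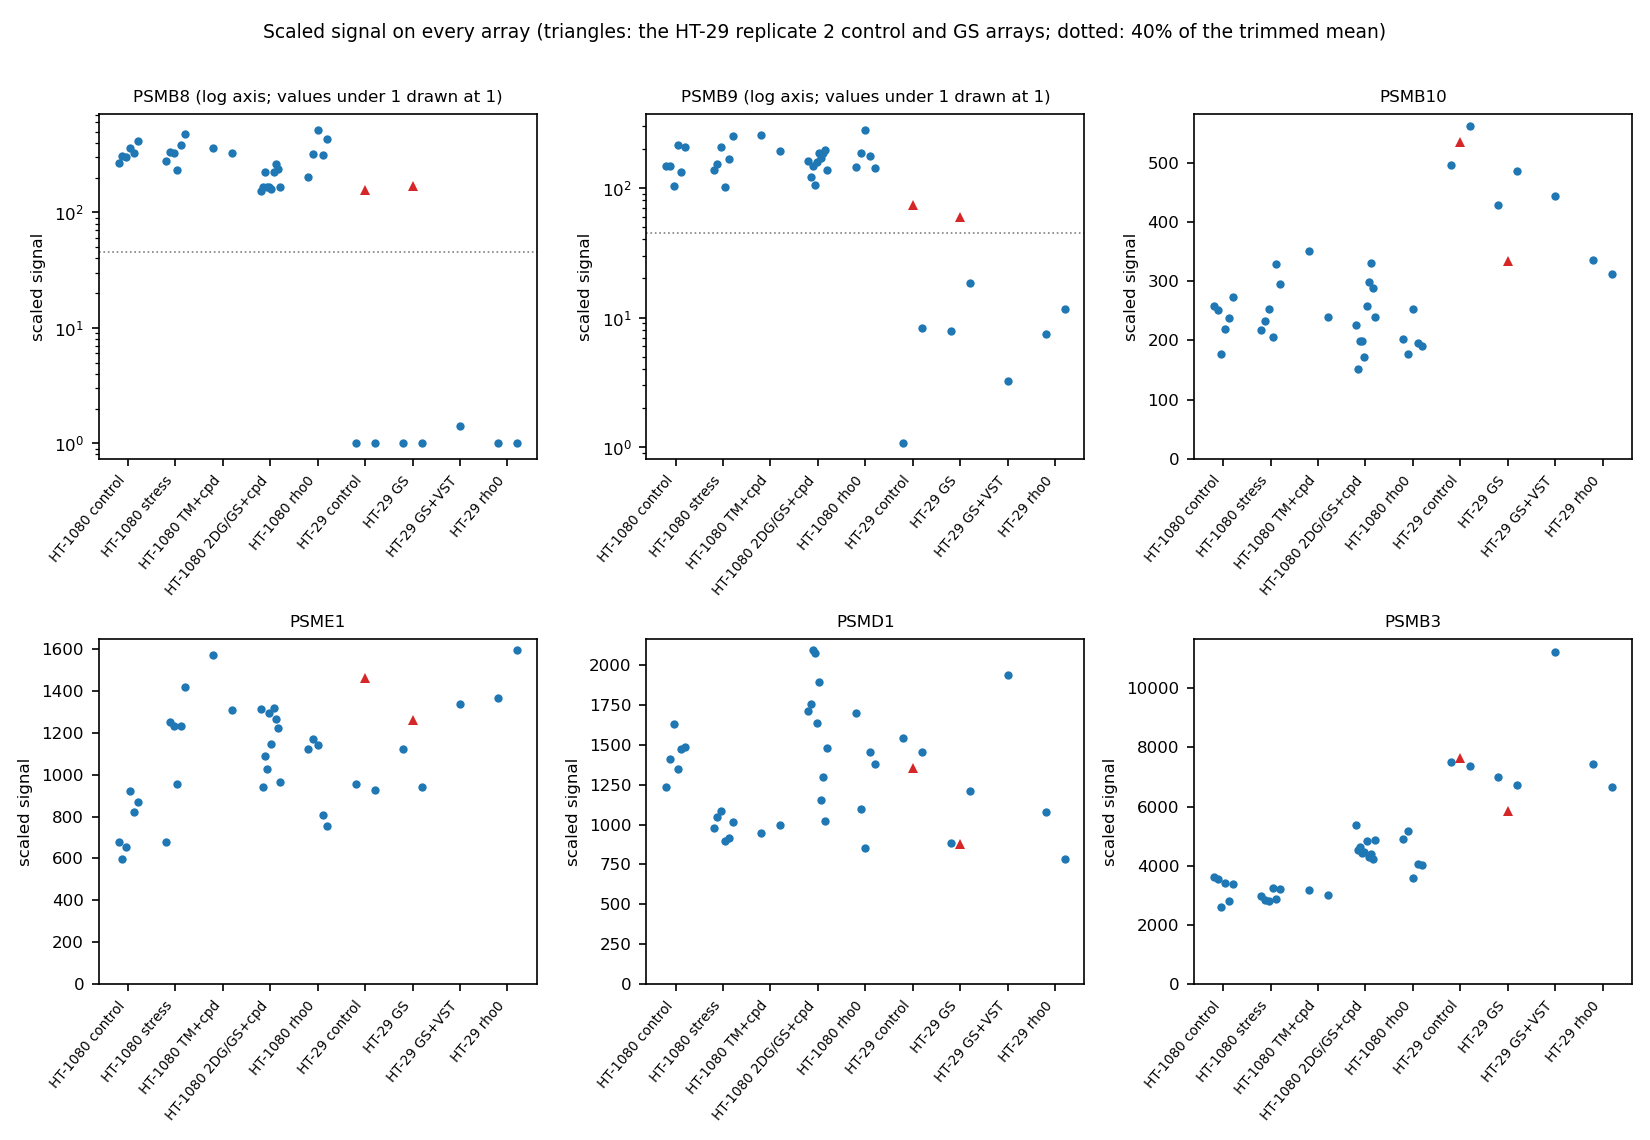
Scaled signal of PSMB8, PSMB9, PSMB10, PSME1, PSMD1 and PSMB3 on each array, grouped by line and treatment (cpd, a compound); PSMB8 and PSMB9 have log axes with values under 1 drawn at 1, the dotted line is 40% of the trimmed mean, and triangles are the HT-29 replicate 2 pair. PSMB8 lies at 155 or more on all HT-1080 arrays and on the pair and at 1.42 or less on the other HT-29 arrays; PSMD1 lies lower with a stress alone than in the controls in HT-1080.

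Between the untreated lines 18 members were higher and 6 lower in HT-29 than in HT-1080 (27.4% and 32.4% of all genes), with a median of 0.18 against -0.04 for genes of similar signal. After quantile normalization the counts were 13 and 12, and without HT-29 control 2 they were 15 and 5, with PSMA1, PSMC2, PSMC4, PSME1 and PSMF1 no longer called and PSME3 called higher (0.36, adjusted p = 0.0053). PSMD5 (1.45 ± 0.11 SE, adjusted p = 4.9e-08), PSMB3 (1.23, adjusted p = 9.2e-08), PSMG2 (0.82, adjusted p = 2.6e-07), a partner of PSMG1, and PSMA5 (0.80, adjusted p = 1.6e-05) were higher. PSMD2 (-0.74, adjusted p = 2.9e-06), a scaffold of the base, PSMD6 (-0.74, adjusted p = 5.7e-05) and PSMB5 (-0.57, adjusted p = 0.00017) were lower. PSMB5 was at 2234, 1809 and 2192 in HT-29 and 2719 to 3456 (median 2999) in HT-1080. Within the HT-1080 controls the members' log2 SD had a median of 0.136 (0.152 for genes of similar signal), from 0.0426 for PSMA4 to 0.38 for PSMB9.

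Few members differed between untreated HT-1080 rho0 and parental cells, a share near that of all genes. In the 2 HT-1080 rho0 controls 3 members were lower and 1 higher than in the 6 parental controls (6.95% and 6.15% of all genes), with a median of 0.05 (-0.14 on the deposited scale). PSMG4 was at 373 and 426 against 568 to 810.5 (median 708; change -0.81 ± 0.21 SE, adjusted p = 0.021), PSMD10 at 663 and 803 against 1032 to 1174 (median 1104; change -0.59 ± 0.13 SE, adjusted p = 0.0081). PSMA4 was at 2185 and 2488 against 2917 to 3179 (median 3107; change -0.40 ± 0.08 SE, adjusted p = 0.0063). The rho0 arrays lay below all parental controls for these 3 genes. PSMD5 was higher (0.43, adjusted p = 0.041). On the deposited scale 7 were lower and 0 higher, after quantile normalization 3 and 2, and without rho0 control 1 0 were lower.

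The stressed rho0 arrays, 1 per treatment and untested, had member medians of 0.14 with 2DG, 0.11 with GS (floating cells) and -0.10 with TM in HT-1080 rho0, and of 0.10 with GS in HT-29 rho0. Their array-wide trimmed means on the deposited scale were 90.2 to 96.3 with 2DG or GS and 113 with TM, and on that scale the medians with 2DG or GS were -0.27 to -0.08. On the common scale PSMD1 stood at 0.22 with 2DG, -0.33 with GS and -0.69 with TM in HT-1080 rho0 and at 0.45 with GS in HT-29 rho0. PSMB8 stood at -0.60, -0.43 and 0.26 in HT-1080 rho0 in the same order, and in HT-29 rho0 it was under the filter level.

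Genes that work beside the proteasome moved in both directions. Of 12 proteasome-associated genes, 3 fell and 2 rose with GS in HT-29, where 15.5% of all genes fell and 11.6% rose. The maturation factor POMP (-0.22, adjusted p = 0.041) and the ubiquitin receptor ADRM1 (-0.38, adjusted p = 0.041) fell. The adaptor ECPAS (0.52, adjusted p = 0.013) rose, as it did with 2DG (0.74) and GS (0.59) in HT-1080. Without the replicate 2 pair ADRM1 alone fell (-0.49, adjusted p = 0.044) and 2 rose, with POMP at -0.20 (adjusted p = 0.14). Of all genes 6.76% then fell and 6.51% rose. Of 6 genes around NFE2L1, 5 rose with GS in HT-29: NFE2L1 (0.65, adjusted p = 0.004), NFE2L2 (0.90), the small Maf partners MAFF (2.96) and MAFG (0.97), and NGLY1 (0.54), the deglycosylase that activates NFE2L1. Of these NFE2L1 (0.64, adjusted p = 0.022) and MAFF (2.81, adjusted p = 0.0026) rose without the pair. In HT-1080 1 of the 6 rose with 2DG and 1 with GS, and NFE2L1 itself stood at 0.41 (adjusted p = 0.06) and 0.38 (adjusted p = 0.14). SQSTM1, an autophagy receptor for ubiquitin, rose by 0.95 with 2DG, 1.82 with GS and 1.46 with GS in HT-29. It was the 1 of 15 ubiquitin and segregase genes that rose in HT-1080, where 0 fell. In HT-29 3 of the 15 rose and 3 fell (11.6% and 15.5% of all genes), and 2 and 3 without the pair. Of 12 antigen presentation genes 2 rose with 2DG, 2 with GS and 4 with GS in HT-29, and 0 fell, where 4.9%, 4.36% and 11.6% of all genes rose. Without the pair, on which 5 of the 12 exceeded every other HT-29 array, 2 rose in HT-29.

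With the inhibitors, how many associated genes rose depended on the scale. Against 2DG alone 6 of 12 rose and 3 fell on the common scale (12.7% and 21.7% of all genes). ADRM1 (0.72) and POMP (0.44) were among those up. The ubiquitin ligase UBE3C (-1.18) and AKIRIN2 (-0.89), a factor for nuclear import of proteasomes, were among those down. In the deposited values 0 rose and 4 fell, with ADRM1 at 0.33 (adjusted p = 0.1), POMP at 0.06 (adjusted p = 0.57), UBE3C at -1.56 and AKIRIN2 at -1.27, and after quantile normalization 2 rose and 3 fell. NFE2L1 fell against 2DG alone (-0.65, adjusted p = 0.0048), against GS alone with Rot or AA (-0.69, adjusted p = 0.015) and with VST (-1.13, adjusted p = 0.00014), and on the deposited scale by -1.04, -1.06 and -1.56. Against 2DG alone 4 of the 15 ubiquitin and segregase genes rose and 4 fell (12.7% and 21.7% of all genes), and 3 and 6 on the deposited scale. VCP, the segregase ATPase, changed by -1.42 (adjusted p = 6.9e-05) on the common scale. SQSTM1 changed by -1.45 (adjusted p = 0.0011) with Rot or AA under GS.

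Of the symbols that match the pattern without naming a proteasome protein, 3 passed the filter. PSMC3IP, a meiotic recombination factor, fell with 2DG (-0.77, adjusted p = 0.026) and GS in HT-1080 (-1.27, adjusted p = 0.0076) and rose against GS alone with Rot or AA (2.07, adjusted p = 3.3e-05) and with VST (1.09, adjusted p = 0.0019). PSMA3-AS1, an antisense RNA, fell against own control with 2DG and the inhibitors (-0.63, adjusted p = 0.017). PSME3IP1 was called only between the lines among the comparisons above, higher in HT-29 (0.73, adjusted p = 5.6e-05). For 19 members 29 other probe sets passed the filter, and 22 of these had a median of the same sign with a stress alone as the probe set used, and 18 with 2DG or GS and a compound. Those of opposite sign with a compound included PSMD11 at -0.61 (0.30 for the probe set used). They also included PSME3 at -0.65 and -0.04 (0.14 for the probe set used), while another of PSME3 was at 0.18.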

How the data were processed

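RNA was measured on 38 arrays. The deposited values are linear probe-set intensity signals made by the authors with MAS5, per the submitters' processing notes. Each array was scaled to a 2% trimmed mean of 112.73, and log2(signal plus 5% of that mean) was used, which understates changes of low genes. Of 54675 probe sets, 41097 had 1 symbol and were used (1801 had several, 11777 none; 232 with a missing value were dropped). At least 2 arrays had to reach 40% of the trimmed mean, which 21480 did, giving 11456 genes.

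Tests used R 4.3.3 and limma 3.58.1 (intensity trend, Benjamini-Hochberg adjusted p under 0.05). The control named in each description was a fixed block, with 1 term per group (5 residual degrees of freedom) or inhibitor class (11); the 12 controls were fitted alone (8). A group of 1 array was taken to have the spread of the replicated groups. The fits were tested on simulated data. All members could be named, and per comparison the 6 largest calls, the catalytic and immunoproteasome subunits, and up to 3 genes of each related list; the text gives some of them. The members and lists were chosen with earlier results of these data known. Alternatives were other scalings, offsets, filters, probe-set means, no trend, no block, subsets of arrays and each array left out; the number of arrays limits precision.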

Additional observations from a re-analysis of the deposited data

Results flagged for a closer look

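Among the 41 members in the 6 HT-1080 controls, 3 had a single array far from the other 5 by Dixon's test, which picks about 1 in 20 such groups by chance. PSMA4 had a signal of 2920 on control 4 (3100 to 3180 on the others), and PSMA7 had 4750 on control 6 (3630 to 3790). PSMG1 had 1730 on control 2 (1420 to 1530). Control 6 is the own control of GS replicate 2, of TM alone and of every array with TM or GS and Rot or AA in parental HT-1080, so PSMA7's changes there start from that value.

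On the common scale the inhibitors' effect differed between 2DG and TM in limma, higher with 2DG, for 7 members: PSMA2 at 0.62, PSMA7 at 0.65, PSMB3 at 0.88, PSMD1 at 0.78, PSMD6 at 0.67, PSMG1 at 0.70 and PSME3 at 0.71 on the log2 scale. The array-wide trimmed mean of the deposited values also differs between these treatments, and its part was not tested.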

How the results depend on the processing

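Counts are members called in the direction with more calls. Main values against alternatives that moved them were, for falls with 2DG (2), 1 without a low filter, 7 with the mean of a gene's probe sets, 0 without trend and 9 within the line. For GS in HT-1080 (5) they were 3 without a filter, 2 without trend and 10 within the line. For GS in HT-29 (16) they were 10 without a filter, 7 without trend, 4 within the line and 6 without the replicate 2 pair, an alternative added after the data were seen. Rises with the inhibitors (18 against own control) were 3 on the deposited scale, 5 with quantiles and 9 with Rot and AA only; against 2DG (18) 2 and 9; against GS (15) 2, 5 and 9 without trend; with VST (25) 3, 8 and 15 without trend. Falls in rho0 controls (3) were 7 on the deposited scale. The GS difference between lines (0) was 2 without the 14 h pair. The 2DG less TM difference (7) was 1 on the deposited and quantile scales and without a filter, 0 without trend, 4 with biguanides only and 1 with Rot and AA only.

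Replicate block: each array's own described control was the block, and without it 3 members were called in the 2DG less TM difference (7 with it) and 1 in the GS less 2DG difference (0 with it). The rise of 1 member in HT-29 was 0 without it, the members' median with TM turned to 0.01, and no other count named here moved by over 1.5 times. On the deposited scale the medians with compounds turned to -0.15, -0.09, -0.13 and -0.04. PSMB7 against 2DG alone turned to -0.02 there and to -0.04 with quantiles, and with VST PSMB5 turned to -0.14, PSMB6 to -0.02 and PSMB7 to -0.05. The cause was not tested.

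Leaving out 1 array gave 0 for 2DG, for GS in HT-1080 and for TM with or without inhibitors, 6 to 17 for GS in HT-29, 9 to 19 and 13 to 19 for 2DG with inhibitors, 0 to 11 for GS with inhibitors, 15 to 27 for VST, 0 to 3 for rho0 and 15 to 17 between lines. It gave 0 to 2 for the line difference, 0 to 9 for 2DG less TM and 0 for GS less 2DG. Where the only array of a group would be left out, no value could be had. Most groups have 1 array, and signals under the filter level carry no order.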
